A study of Homo sapiens with 54 samples.

Results

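The genes described here are a chosen list of 10 around translesion synthesis and its RAD6/RAD18 switch: UBE2A, UBE2B, RAD18, HLTF, POLH, POLI, POLK, REV1, REV3L and POLQ. They were taken by symbol from the table of gene counts, where they are 10 of 27470 rows, and all 10 passed the filter on low values in both cell lines. Expression was measured by 3′ mRNA sequencing in 54 libraries of 2 triple negative breast cancer (TNBC) cell lines, SUM1315, a BRCA1 mutant line, and MDA-MB-468, a BRCA1 wild type line. The paper states that both lines express mutant p53. Each line had 9 groups of 3 libraries: parental cells left untreated, given olaparib overnight, given a low or a high dose of cisplatin (CDDP), or given olaparib with either CDDP dose, and olaparib-resistant (OlaR) cells without CDDP or with either dose. Olaparib inhibits PARP enzymes and CDDP crosslinks DNA.

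Parental SUM1315 cells received 8 µM olaparib and 2 or 4 µM CDDP, and parental MDA-MB-468 cells received 3 µM olaparib and 1 or 2.5 µM CDDP. OlaR cells had been selected by rising olaparib doses and were kept in 25 µM (SUM1315) or 15 µM (MDA-MB-468) olaparib throughout, so every OlaR group carried olaparib at a higher dose than the olaparib-treated parental group it was compared with. Whether each OlaR culture was 1 clone or a pool is not given in the sources used here, and nothing says whether the 3 libraries of a group came from separate cultures, so the p-values measure the spread between these libraries, which may be technical. Each line also had its own doses, and the libraries were pooled for sequencing in batches of 27 without a statement of which went together, so for levels the line and the batch cannot be told apart, and levels are set side by side between lines without a test. Nor is it stated whether OlaR and parental libraries of a line shared a batch. Every OlaR library had fewer reads than every parental one, so resistance and batch may not be told apart either.

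Translesion synthesis lets a replication fork pass a damaged base. UBE2A and UBE2B are the human RAD6 proteins, the ubiquitin-conjugating enzymes that work with the ligase RAD18 to put a single ubiquitin on the sliding clamp PCNA, which favours a switch to a translesion polymerase. POLH (Pol η), POLI (Pol ι), POLK (Pol κ) and REV1 are Y-family polymerases, REV3L is the catalytic subunit of Pol ζ, which extends from the inserted base, and Pol η with Pol ζ is known for bypass of CDDP crosslinks. HLTF can extend ubiquitin chains on PCNA and reverse stalled forks, and POLQ (Pol θ) carries out an end joining that uses short homologies, a pathway on which BRCA-deficient cells are known to depend.

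Values are adjusted read counts, the reads of a gene after the authors scaled all libraries to 1 common size. A library held between 2070301 and 9268162 reads, with fewer in the OlaR libraries (2070301 to 4676284) than in the parental ones (4977284 to 9268162). The 3 untreated SUM1315 libraries stood apart from the treated parental ones: they had reads on 17086 to 17637 genes against 14612 to 16219, and their group mean correlated at 0.942 to 0.962 with the treated parental means, which correlated at 0.960 to 0.987 among themselves. In MDA-MB-468 the same ranges were 0.980 to 0.985 and 0.984 to 0.992. Of the epithelial markers, EPCAM had 1397 to 5339 reads in MDA-MB-468 and 0 to 5 in SUM1315, and KRT5 347 to 3123 and 0 to 17. SUM1315 did hold reads of the epithelial keratins KRT18 (168 to 616) and KRT8 (17 to 189). In the same line VIM, a mesenchymal gene, had 5081 to 15544 reads, COL1A1 74 to 831 and PECAM1 24 to 224. Of the receptors that TNBC lacks, PGR had at most 3 reads in any library, ERBB2 at most 71, and ESR1 35 to 182 in MDA-MB-468. PTPRC, a leukocyte gene, had at most 8 reads. In bulk RNA, fewer cells that express a gene and less RNA per cell cannot be told apart.

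The promoters of 4 of the genes are shown because these genes carry the patterns described below: RAD18 and POLQ had similar profiles over the groups, and POLH and HLTF moved in opposite directions in OlaR cells. Each is the 250 bases before the RefSeq gene start (GRCh38), 5′ to 3′ on the strand of the gene, in lower case with motif matches in capitals.
RAD18, chr3:8963473-8963722, minus strand: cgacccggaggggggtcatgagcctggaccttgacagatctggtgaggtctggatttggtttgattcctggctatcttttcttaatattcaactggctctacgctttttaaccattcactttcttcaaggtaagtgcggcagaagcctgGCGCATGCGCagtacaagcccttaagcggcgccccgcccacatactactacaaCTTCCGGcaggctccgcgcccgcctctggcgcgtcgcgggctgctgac
POLQ, chr3:121545989-121546238, minus strand: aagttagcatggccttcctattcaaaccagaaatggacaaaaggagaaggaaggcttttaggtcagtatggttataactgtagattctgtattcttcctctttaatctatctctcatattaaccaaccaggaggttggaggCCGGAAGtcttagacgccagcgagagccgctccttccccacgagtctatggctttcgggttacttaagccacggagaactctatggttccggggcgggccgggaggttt
POLH, chr6:43575935-43576184, plus strand: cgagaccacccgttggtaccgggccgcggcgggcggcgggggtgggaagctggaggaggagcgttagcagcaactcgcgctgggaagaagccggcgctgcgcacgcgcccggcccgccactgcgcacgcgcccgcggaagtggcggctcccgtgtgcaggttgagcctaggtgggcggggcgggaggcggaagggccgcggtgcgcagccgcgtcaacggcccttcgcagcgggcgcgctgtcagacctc
HLTF, chr3:149086534-149086783, minus strand: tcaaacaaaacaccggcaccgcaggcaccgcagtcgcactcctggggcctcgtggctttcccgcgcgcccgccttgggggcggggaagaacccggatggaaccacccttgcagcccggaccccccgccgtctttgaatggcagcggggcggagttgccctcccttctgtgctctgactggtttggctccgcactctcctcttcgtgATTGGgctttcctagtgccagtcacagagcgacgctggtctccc
In all, 5 motifs were searched on both strands: CCAAT, the ETS motif CCGGAAG, the NRF1 motif GCATGCGC, the E2F motif TTTNGCGC and the CRE motif TGACGTCA. RAD18 held overlapping NRF1 matches on both strands, which begin 101 and 99 bases before the start, and an ETS match 48 bases before it. POLQ held an ETS match 109 bases before the start and HLTF a CCAAT match 44 bases before it. The POLH window held none of these letters. Of 35116 promoters of this length, 32% held CCAAT, 8.52% the ETS motif, 2.63% the NRF1 motif, 1.51% the E2F motif and 1.65% the CRE motif. Among the other genes POLI held 2 ETS matches and UBE2A, POLK, REV1 and REV3L held no match. UBE2B had no entry in the promoter table used.

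At the 3′ ends, where the reads of this assay fall, none of the 451 different 50-base windows in the last 500 bases of each transcript occurred in an annotated transcript of another gene, UBE2A and UBE2B included. The last exons of POLH, POLK, REV1, REV3L and HLTF overlap a gene on the opposite strand, which for POLH is GTPBP2, for REV1 EIF5B, for REV3L MFSD4B and for HLTF GYG1. Whether the counting used the strand is not given in the sources used here, so reads of these neighbours may not be told apart from theirs.

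Differences were tested with limma on log2(adjusted read count + 1) over all genes of a line and called at a Benjamini-Hochberg adjusted p of at most 0.05, with no limit on the fold change, and the adjusted p-values below are from this fit. In parental SUM1315, olaparib moved 3 of the 10 genes against untreated cells (36% of the 13133 genes tested were called), low CDDP 5 (33.9%) and high CDDP 5 (43.9%). High against low CDDP moved 0 (10.5%), low CDDP added to olaparib 0 (3.76%), high CDDP added to olaparib 2 (8.44%) and olaparib added to high CDDP 1 (12.8%). OlaR against olaparib-treated parental cells moved 6 (47.2%), and within OlaR cells low CDDP moved 0 (1.42%) and high CDDP 2 (16.7%). With 10 genes, these counts lie near the share of all genes called, and the counts alone do not set the genes apart. The comparisons with untreated cells share their 3 untreated libraries, and those with olaparib alone share the olaparib libraries.

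In parental MDA-MB-468, olaparib moved 5 of the 10 (21.5% of the 13012 genes tested), low CDDP 3 (20%) and high CDDP 7 (25.1%). High against low CDDP moved 0 (6.96%), low CDDP added to olaparib 0 (5.26%), high CDDP added to olaparib 2 (23.1%) and olaparib added to high CDDP 2 (11.9%). OlaR against olaparib-treated parental cells moved 7 (51.5%), low CDDP in OlaR cells 0 (4.76%) and high CDDP in OlaR cells 1 (18.7%). The change with high CDDP differed between OlaR and olaparib-treated parental cells for 2 of the 10 in MDA-MB-468 (15%) and for 0 in SUM1315 (6.4%). Between the lines, the olaparib change differed for 3 (19.9% of 14460 genes), the high CDDP change for 2 (27.5%), the OlaR difference for 6 (41.7%) and the high CDDP change in OlaR cells for 0 (5.44%). In the 8 comparisons with a count of 0, between 1 and 3 of the 10 genes had an unadjusted p under 0.05, and limma voom, edgeR and DESeq2 on the recovered reads also called 0, apart from DESeq2, which called RAD18 for low CDDP added to olaparib in SUM1315. Below, every alternative run means the other pseudocounts, filter, centring, tests and replicate block and the fits without 1 library each, and neither the limit on the fold change nor untreated cells as the reference for OlaR cells, whose values are given apart.

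**Figure D1:**
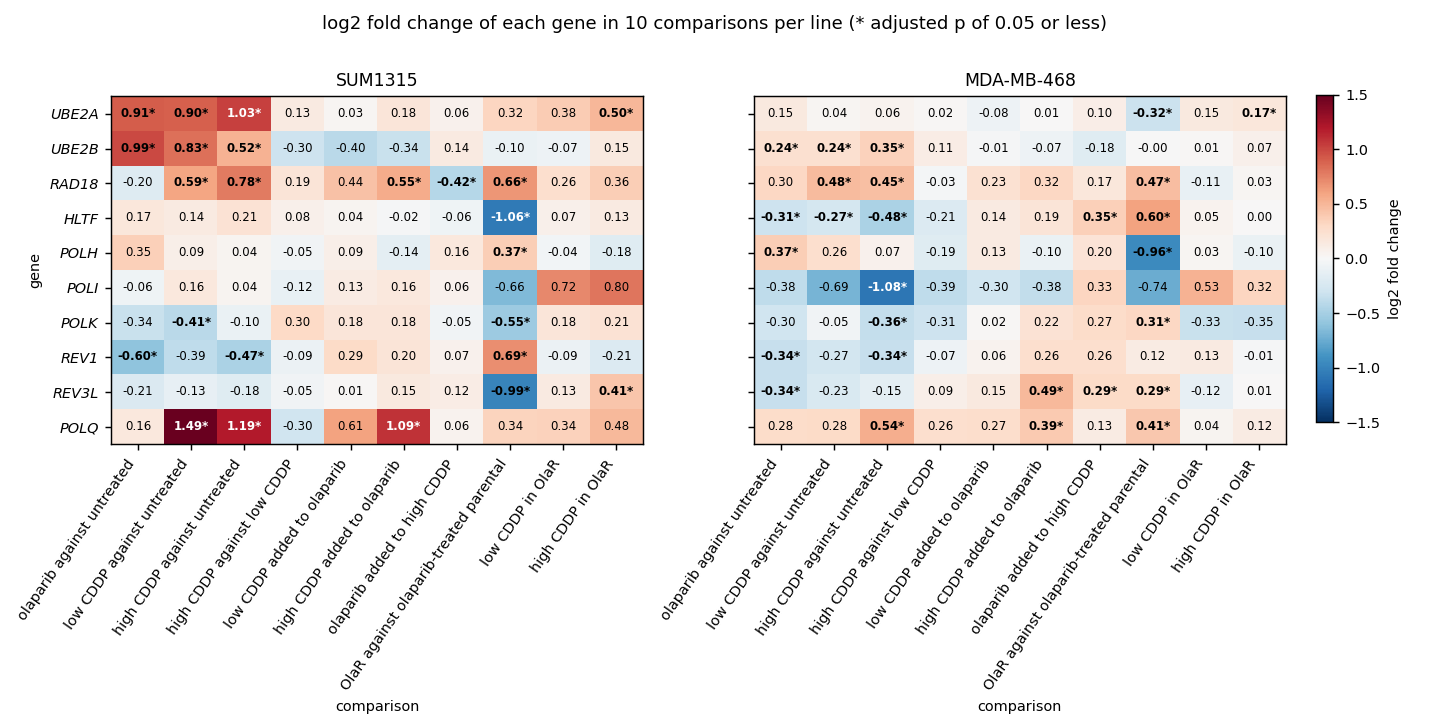
log2 fold changes of the 10 genes (rows) in 10 comparisons (columns) for each line, with an asterisk and bold type at an adjusted p of 0.05 or less. POLQ under low CDDP in SUM1315 has the highest value, 1.49, and in the column of OlaR against olaparib-treated parental cells HLTF, REV3L, POLK and POLH are called with opposite signs in the lines, and UBE2A (0.32, not called, and -0.32) also has opposite signs.

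UBE2A (chrX:119474802-119591083) and UBE2B (chr5:134371184-134392108), the RAD6 enzymes, rose in parental SUM1315 under olaparib and under each CDDP dose. UBE2A had 313, 305 and 198 adjusted reads in the untreated SUM1315 libraries, 424, 528 and 559 under olaparib, 512, 470 and 509 under low CDDP and 520, 558 and 554 under high CDDP. Every treated library was above every untreated one, with log2 fold changes of 0.91 (95% CI 0.62 to 1.19, adjusted p = 3.67e-06) under olaparib, 0.90 (adjusted p = 5.03e-06) under low CDDP and 1.03 (adjusted p = 2.9e-07) under high CDDP. UBE2B went from 697, 846 and 475 in untreated cells to 1291, 1463 and 1175 under olaparib, a log2 fold change of 0.99 (95% CI 0.72 to 1.27, adjusted p = 5.76e-07). It rose by 0.83 under low CDDP (adjusted p = 1.34e-05) and by 0.52 under high CDDP (adjusted p = 0.00216), and the doses did not differ past the test (-0.305, adjusted p = 0.153). Without untreated replicate 3 the high CDDP change was 0.29 (adjusted p = 0.0507). These rises rest on the untreated libraries that stood apart, and cannot be computed without them. In the 24 other SUM1315 libraries UBE2A had 424 or more adjusted reads and UBE2B 905 or more.

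In MDA-MB-468 the UBE2A level moved little in parental cells: the untreated libraries held 1115, 1149 and 1132 adjusted reads, and olaparib gave 1312, 1276 and 1184, a log2 fold change of 0.15 that was not called (adjusted p = 0.0749). UBE2B was higher under olaparib (log2 fold change 0.24, adjusted p = 0.0122), low CDDP (0.24, adjusted p = 0.0141) and high CDDP (0.35, adjusted p = 0.000235), from 628, 741 and 624 in untreated cells to 891, 884 and 764 under high CDDP. The olaparib call of UBE2B was lost without olaparib replicate 2 (adjusted p = 0.0651), untreated replicate 1 (0.0801) or untreated replicate 3 (0.0842), and the low CDDP call without untreated replicate 1 (0.0845) or 3 (0.0956). The changes differed between the lines for UBE2A under olaparib, by 0.76 on the log2 scale (95% CI 0.44 to 1.07, adjusted p = 0.000331), and under high CDDP, by 0.97 (0.65 to 1.28, adjusted p = 4.12e-06), and for UBE2B under olaparib, by 0.75 (0.42 to 1.08, adjusted p = 0.000696). For UBE2B under high CDDP the difference between the lines was 0.17 (-0.16 to 0.51, adjusted p = 0.473).

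In OlaR cells UBE2A was at 767, 588 and 539 in SUM1315 and at 1020, 1017 and 980 in MDA-MB-468. Against olaparib-treated parental cells it was lower in MDA-MB-468 (log2 fold change -0.32, 95% CI -0.44 to -0.20, adjusted p = 1.65e-05), with every OlaR library below the parental range of 1184 to 1312, and it was not called in SUM1315 (0.32, adjusted p = 0.0562). The difference between the lines passed the test (0.64, adjusted p = 0.000799). High CDDP raised UBE2A further in SUM1315 OlaR cells, to 953, 770 and 933 (log2 fold change 0.50, adjusted p = 0.0119), the highest group mean of the gene in that line (885 ± 100.4, SD, n = 3). The call did not hold when OlaR replicate 2 (adjusted p = 0.0541), OlaR replicate 3 (0.0891) or the first high CDDP replicate of OlaR cells (0.0642) was left out. In MDA-MB-468 OlaR cells the change was 0.17 (adjusted p = 0.0492), and leaving out any of OlaR replicates 1 (0.0753), 2 (0.0815) and 3 (0.149), or high CDDP replicates 1 (0.101) and 2 (0.23) of OlaR cells, ended that call. It was also lost with no filter (0.0588), with a replicate block (0.0562), with the compared groups alone (0.0605), with limma voom (0.0778) and with edgeR (0.0541). UBE2B did not pass the test between OlaR and olaparib-treated parental cells in either line (-0.10, adjusted p = 0.561, and -0.002, adjusted p = 0.981). With untreated cells as the reference, the OlaR difference in SUM1315 was 1.225 for UBE2A (adjusted p = 4.76e-09) and 0.89 for UBE2B (adjusted p = 1.42e-06). In MDA-MB-468 it was -0.17 (adjusted p = 0.0169) and 0.24 (adjusted p = 0.0049). The SUM1315 values rest on the untreated libraries that stood apart.

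The ratio of UBE2A to UBE2B within a library separated the lines without overlap. It ran from 0.326 to 0.823 with a median of 0.536 over the 27 SUM1315 libraries and from 1.21 to 1.81 with a median of 1.51 over the 27 MDA-MB-468 libraries. In SUM1315 the group means went from 0.388 ± 0.0773 (SD, n = 3) under olaparib to 0.708 ± 0.1 in OlaR cells with low CDDP. In MDA-MB-468 they went from 1.29 ± 0.0784 in OlaR cells to 1.71 ± 0.142 in untreated cells. The ratio is set against itself across libraries and says nothing of how many transcripts of each gene there are, and it is a description without a test.

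**Figure D2:**
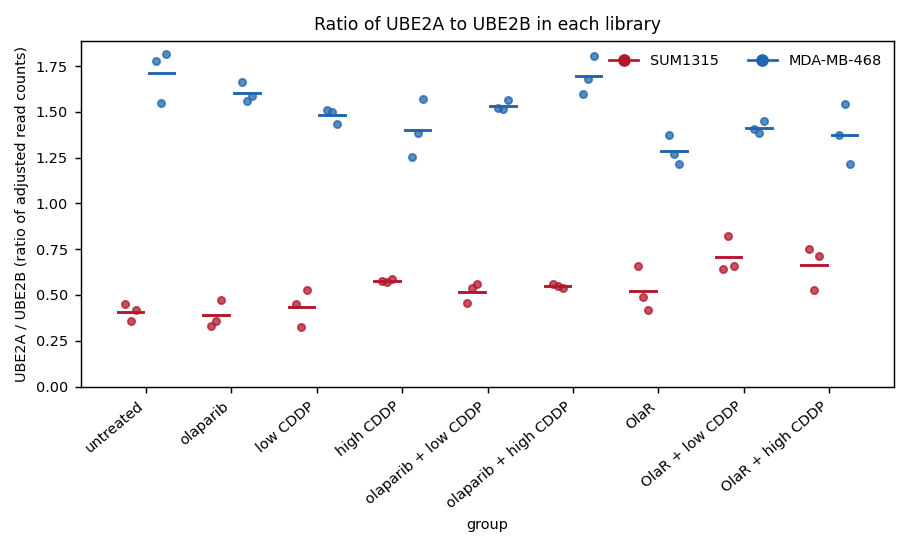
Ratio of the adjusted read counts of UBE2A and UBE2B (vertical axis, from 0) in each library by group (horizontal axis), with bars at the group means of 3 libraries. All SUM1315 libraries lie at or below 0.823 and all MDA-MB-468 libraries at or above 1.21.

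RAD18 (chr3:8775402-8963773), the ligase that acts with the RAD6 enzymes, rose with CDDP alone in parental cells and was higher in OlaR cells of both lines. In SUM1315 it went from 125, 130 and 153 adjusted reads in untreated cells to 187, 212 and 216 under low CDDP and 213, 226 and 263 under high CDDP. The groups did not overlap, and the log2 fold changes were 0.59 (95% CI 0.29 to 0.89, adjusted p = 0.00191) and 0.78 (0.48 to 1.07, adjusted p = 5.35e-05). These rises rest on the untreated libraries that stood apart. Olaparib alone left RAD18 at 120, 109 and 126 (-0.20, adjusted p = 0.302). Beside olaparib, high CDDP gave 154, 185 and 183, which was above olaparib alone (0.55, adjusted p = 0.0144) and below high CDDP alone (-0.425, adjusted p = 0.0491). The first of these was lost without olaparib replicate 2 (adjusted p = 0.0754) or replicate 2 (0.073) or 3 (0.0649) of olaparib with high CDDP. The second was lost without any of the 6 libraries compared, with adjusted p-values between 0.057 and 0.215, and also with no filter (0.0597) and with a replicate block (0.0549).

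In MDA-MB-468 the untreated libraries held 120, 99.0 and 110 adjusted reads of RAD18. Low CDDP gave 127, 170 and 165 (log2 fold change 0.48, adjusted p = 0.0086) and high CDDP 159, 156 and 134 (0.45, adjusted p = 0.0121). All 6 CDDP libraries were above the 3 untreated ones. The olaparib libraries, at 130.2 to 142.3, were above them too, but that change was not called. The low CDDP call was lost without low CDDP replicate 2 (adjusted p = 0.0647) or untreated replicate 2 (0.0593), and the high CDDP call without high CDDP replicate 1 (0.0571) or 2 (0.05, just past the limit) or untreated replicate 2 (0.0713). OlaR cells held 204, 177 and 181 in SUM1315 against 120, 109 and 126 in olaparib-treated parental cells, and 195, 190 and 177 in MDA-MB-468 against 142, 134 and 130. No OlaR library overlapped with the olaparib-treated parental ones, and the log2 fold changes of 0.66 (95% CI 0.36 to 0.96, adjusted p = 0.00036) and 0.47 (0.19 to 0.74, adjusted p = 0.00376) were called under every alternative run. RAD18 was the one member of the 10 called in the same direction in both lines in this comparison, and it was also higher in OlaR than in untreated cells (0.46, adjusted p = 0.00795, and 0.77, adjusted p = 4.47e-06). Other additions of CDDP did not move RAD18 past the test. These were low CDDP added to olaparib (0.44, adjusted p = 0.0769, in SUM1315 and 0.23, adjusted p = 0.397, in MDA-MB-468), high CDDP added to olaparib in MDA-MB-468 (0.315, adjusted p = 0.0925), low CDDP in OlaR cells (0.26, adjusted p = 0.451, and -0.11, adjusted p = 0.721) and high CDDP in OlaR cells (0.36, adjusted p = 0.0834, and 0.03, adjusted p = 0.915). Over the 9 groups its mean ran from 118 under olaparib to 241 in OlaR cells with high CDDP in SUM1315, and from 110 in untreated cells to 193 in OlaR cells with high CDDP in MDA-MB-468.

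**Figure D3:**
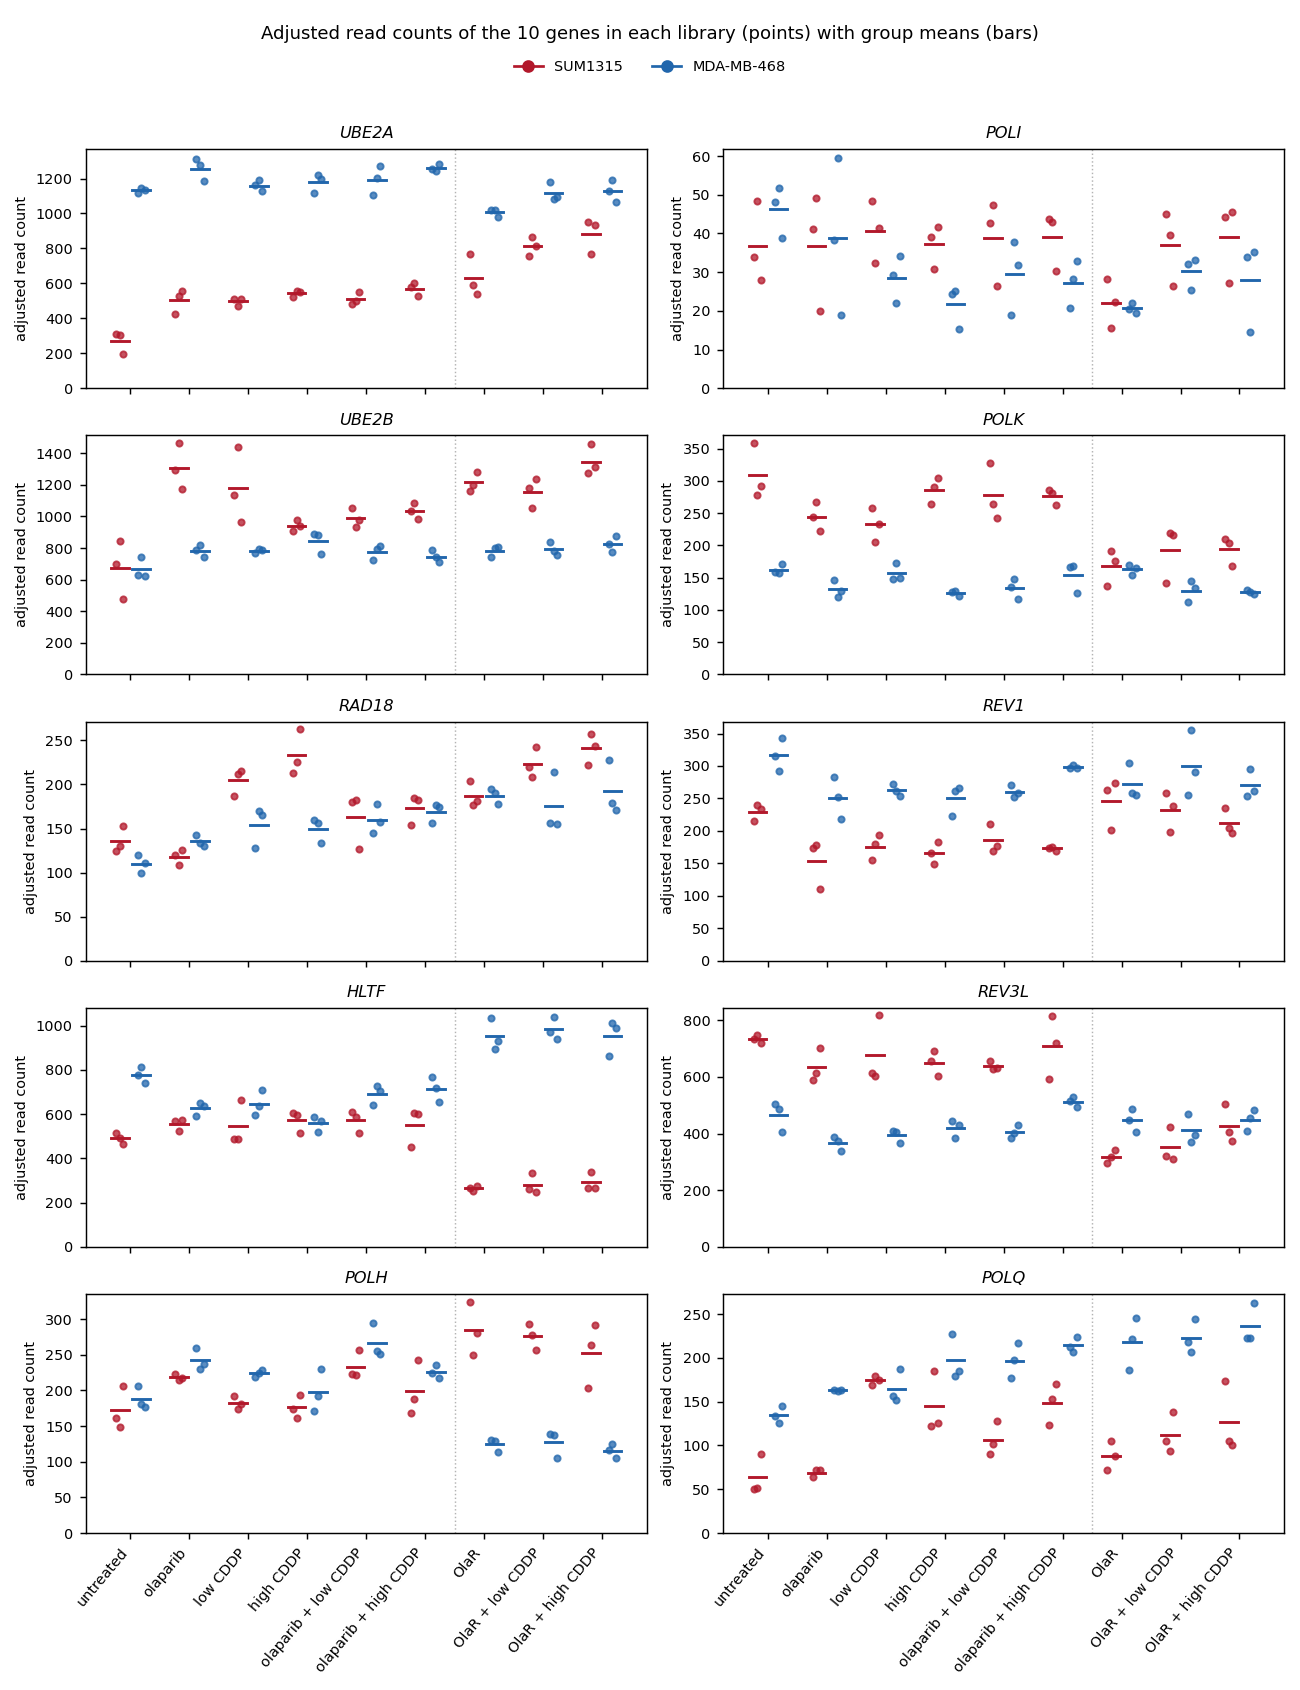
Adjusted read counts (vertical axes, from 0) of the 10 genes in each of the 54 libraries (points) with group means (bars), by group, SUM1315 in red and MDA-MB-468 in blue, with a dotted line between parental and OlaR groups. HLTF separates across the dotted line in both lines, in opposite directions. Without CDDP, its OlaR libraries lie between 254 and 276 in SUM1315 and between 895 and 1034 in MDA-MB-468. POLH separates there in MDA-MB-468 but overlaps in SUM1315, and REV3L separates in SUM1315 but overlaps in MDA-MB-468.

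HLTF (chr3:149030127-149086554), which can extend ubiquitin chains on PCNA and remodel forks, moved the furthest apart between the resistant lines. In SUM1315 the OlaR libraries held 265, 254 and 276 adjusted reads against 567, 524 and 572 in olaparib-treated parental cells, a log2 fold change of -1.06 (95% CI -1.33 to -0.79, adjusted p = 6.01e-08). In MDA-MB-468 they held 1034, 895 and 929 against 591, 651 and 635, a log2 fold change of 0.60 (0.45 to 0.76, adjusted p = 2.71e-09). Over all 9 OlaR libraries of a line HLTF had at most 340 adjusted reads in SUM1315, where the lowest parental library had 452, and at least 863 in MDA-MB-468, where the highest parental library had 812. The difference between the lines was -1.67 (95% CI -1.98 to -1.35, adjusted p = 4.55e-12), and all these calls held under every alternative run and with untreated cells as the reference (-0.89, adjusted p = 9.1e-07, and 0.29, adjusted p = 0.00116).

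Under the drugs HLTF fell in parental MDA-MB-468 and was not called in parental SUM1315. The untreated MDA-MB-468 libraries held 777, 812 and 742 adjusted reads, and olaparib gave 591, 651 and 635 (log2 fold change -0.31, adjusted p = 0.00181), low CDDP 596, 636 and 707 (-0.27, adjusted p = 0.00886) and high CDDP 588, 520 and 567 (-0.48, 95% CI -0.63 to -0.32, adjusted p = 3.07e-06). All treated libraries in these groups were below the untreated ones. The low CDDP call was lost without low CDDP replicate 1 (adjusted p = 0.0804) or untreated replicate 2 (0.0536). With olaparib beside high CDDP the values were 770, 716 and 657, above high CDDP alone (0.35, adjusted p = 0.000885). The untreated SUM1315 libraries held 516, 494 and 466, and the log2 fold changes there were between 0.14 and 0.22, none of them called. The high CDDP change differed between the lines by 0.69 (95% CI 0.38 to 1.01, adjusted p = 0.000642). The olaparib change differed by 0.48 (adjusted p = 0.0222), a call that was lost with each library centred on its median (adjusted p = 0.0558) or without untreated replicate 3 of SUM1315 (0.0611), olaparib replicate 1 of MDA-MB-468 (0.0571) or untreated replicate 2 of MDA-MB-468 (0.053).

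POLH (chr6:43576185-43620523), which encodes Pol η, fell in OlaR MDA-MB-468 cells. The OlaR libraries held 131, 129 and 113 adjusted reads and the olaparib-treated parental ones 260, 231 and 237, a mean of 124 ± 9.69 against 243 ± 15.1 (SD, n = 3). The groups did not overlap and the log2 fold change was -0.96 (95% CI -1.21 to -0.71, adjusted p = 3.02e-09), with values between -0.999 and -0.894 under every alternative run. In parental MDA-MB-468 olaparib itself raised POLH from 206, 181 and 176 (0.37, adjusted p = 0.023), so that against untreated cells the OlaR difference was -0.59 (adjusted p = 5.57e-05). The olaparib call was lost without olaparib replicate 1 (adjusted p = 0.103), untreated replicate 2 (0.0779) or untreated replicate 3 (0.0955). Adding low CDDP to the OlaR cells gave 140, 138 and 106 and high CDDP 116, 125 and 106, so all 9 OlaR libraries lay below the parental minimum of 172.

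In SUM1315 the POLH difference had the opposite sign. OlaR libraries held 324, 249 and 280 adjusted reads against 222, 215 and 218 in olaparib-treated parental cells, a log2 fold change of 0.37 (95% CI 0.07 to 0.68, adjusted p = 0.0397). Without OlaR replicate 1 it was 0.28 (adjusted p = 0.189), and the call was also lost without OlaR replicate 3 (0.0721) or olaparib replicate 1 (0.0679), 2 (0.0893) or 3 (0.076), and with no filter (0.0547). Against untreated SUM1315 cells, at 162, 149 and 207, the OlaR difference was 0.73 (adjusted p = 0.00012). Every olaparib-treated parental library of this line was also above the untreated ones, but that olaparib change was not called. The OlaR difference against olaparib-treated parental cells differed between the lines by 1.33 (95% CI 0.96 to 1.71, adjusted p = 1.15e-07), which was called under every alternative run. CDDP alone did not move POLH past the test in either parental line: the log2 fold changes were 0.09 and 0.04 in SUM1315 and 0.26 (adjusted p = 0.14) and 0.07 in MDA-MB-468 for the low and the high dose.

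**Figure D4:**
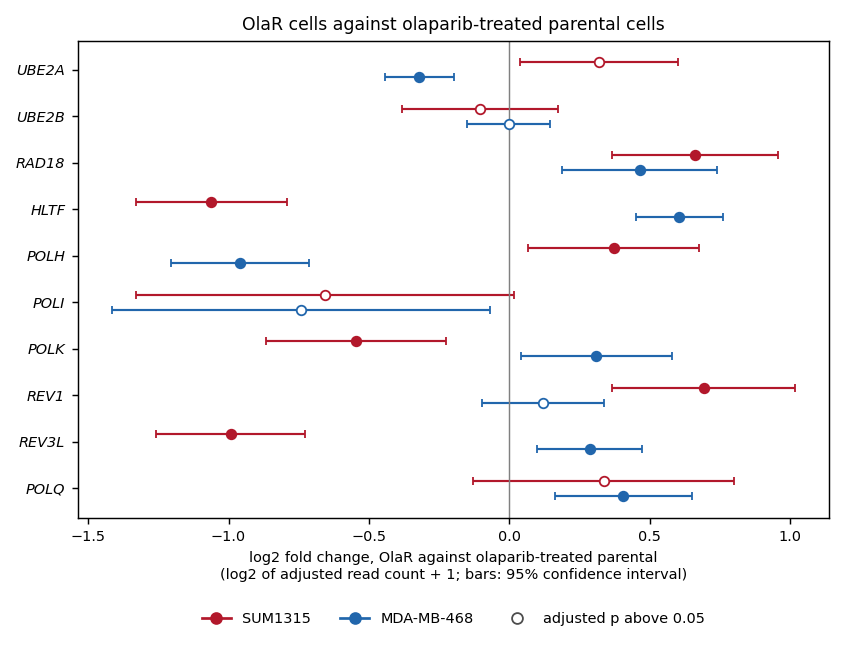
log2 fold change (horizontal axis) of each gene (vertical axis) between OlaR and olaparib-treated parental cells, SUM1315 in red and MDA-MB-468 in blue, with 95% confidence intervals from 3 libraries a group and open symbols where the adjusted p was above 0.05. RAD18 is called higher in both lines (0.66 and 0.47), while HLTF (-1.06 and 0.60), POLH (0.37 and -0.96), POLK (-0.55 and 0.31) and REV3L (-0.99 and 0.29) lie on opposite sides of 0, as does UBE2A (0.32, not called, and -0.32).

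POLK (chr5:75511845-75609991), the Y-family polymerase Pol κ, was lower in OlaR SUM1315 cells, at 137, 191 and 176 adjusted reads against 244, 267 and 222 in olaparib-treated parental cells. The groups did not overlap and the log2 fold change was -0.55 (95% CI -0.87 to -0.22, adjusted p = 0.00493), which without OlaR replicate 1 was -0.41 (adjusted p = 0.0557). In MDA-MB-468 it was at 169, 155 and 165 against 146, 120 and 130 (0.31, adjusted p = 0.0481), a call that was lost when only the compared groups were fitted (adjusted p = 0.0586), without OlaR replicate 1 (0.122), 2 (0.0536) or 3 (0.0974), and without olaparib replicate 2 (0.178) or 3 (0.0954). The difference between the lines was -0.86 (95% CI -1.26 to -0.45, adjusted p = 0.00053) and was called under every alternative run. With untreated cells as the reference, POLK in OlaR cells differed by -0.88 (adjusted p = 1.73e-05) in SUM1315. In MDA-MB-468 that difference was 0.006 (adjusted p = 0.973), so OlaR cells there were at the untreated level. The CDDP changes of POLK were less firm. Low CDDP in SUM1315 gave 258, 206 and 234 against 358, 279 and 292 (-0.41, adjusted p = 0.0447), with adjusted p-values between 0.0594 and 0.207 without low CDDP replicate 2 or 3 or untreated replicate 1 or 3, 0.0604 with no filter, 0.0726 with the compared groups alone and 0.0509 with a replicate block. High CDDP in MDA-MB-468 gave 128, 129 and 122 against 159, 158 and 171 (-0.36, adjusted p = 0.0407), and without any of these 6 libraries the adjusted p was between 0.0654 and 0.128.

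POLI (chr18:54269517-54321266), Pol ι, had the fewest reads of the 10 genes, with 8 to 57 reads a library in SUM1315 and 11 to 81 in MDA-MB-468. Its group means lay between 22.1 and 40.7 adjusted reads in SUM1315 and between 20.6 and 46.3 in MDA-MB-468, with the lowest mean of each line in OlaR cells. The call it received was under high CDDP in MDA-MB-468, where 24.5, 25.2 and 15.4 stood against 48.2, 51.8 and 38.7 in untreated cells (log2 fold change -1.08, 95% CI -1.75 to -0.41, adjusted p = 0.0129). The call was lost without high CDDP replicate 3 (-0.86, adjusted p = 0.0957) or untreated replicate 2 (-0.99, adjusted p = 0.0528). OlaR against olaparib-treated parental cells gave -0.66 in SUM1315 and -0.74 in MDA-MB-468 with intervals of -1.33 to 0.02 and -1.41 to -0.07, and neither passed the test (adjusted p = 0.103 and 0.0594). Against untreated cells the OlaR difference was -0.72 (adjusted p = 0.0661) in SUM1315 and -1.12 (adjusted p = 0.0041) in MDA-MB-468. With so few reads these intervals were wider than those of the other 9 genes, and changes of POLI inside them were not detectable.

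REV1 (chr2:99400475-99490035), the Y-family polymerase that also holds the other translesion polymerases together, was called lower under olaparib and high CDDP in both parental lines. In SUM1315 it had 215, 240 and 234 adjusted reads in untreated cells, 173, 179 and 111 under olaparib and 165, 149 and 183 under high CDDP, and no treated library reached the untreated range. The log2 fold changes were -0.60 (95% CI -0.93 to -0.27, adjusted p = 0.00353) and -0.47 (-0.80 to -0.15, adjusted p = 0.0167). Without olaparib replicate 3 the first was -0.38 (adjusted p = 0.0656), and the second was lost without high CDDP replicate 2 (0.0789) or untreated replicate 2 (0.051). In MDA-MB-468 it had 316, 293 and 344 in untreated cells against 284, 252 and 218 under olaparib (-0.34, adjusted p = 0.0174) and 224, 262 and 266 under high CDDP (-0.34, adjusted p = 0.015). These were lost without untreated replicate 3 (adjusted p = 0.103 and 0.092), the first also without olaparib replicate 3 (0.149) and the second without high CDDP replicate 1 (0.115). Low CDDP libraries also lay below the untreated ones, at 154.7 to 193 in SUM1315 and 253.6 to 272.7 in MDA-MB-468. Neither of these low CDDP changes was called. The SUM1315 falls rest on the untreated libraries that stood apart. Between the lines the olaparib changes differed by -0.26 (95% CI -0.65 to 0.13) and the high CDDP changes by -0.13 (-0.52 to 0.26), neither of them called.

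In OlaR SUM1315 cells REV1 was at 263, 202 and 274 adjusted reads, above the olaparib-treated parental libraries (log2 fold change 0.69, 95% CI 0.37 to 1.02, adjusted p = 0.000609) and spanning the untreated ones (0.09, 95% CI -0.23 to 0.42, adjusted p = 0.652). In MDA-MB-468 OlaR cells it was at 305, 258 and 255 (0.12 against olaparib-treated parental cells and -0.22, adjusted p = 0.0824, against untreated cells, neither called). The difference between the lines was 0.57 (95% CI 0.18 to 0.96, adjusted p = 0.0149). It was lost when only the compared groups were fitted (adjusted p = 0.0801), without olaparib replicate 3 of SUM1315, where it was 0.35 (0.122), without OlaR replicate 3 of SUM1315 (0.0527) and without olaparib replicate 1 of MDA-MB-468 (0.0558).

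REV3L (chr6:111299028-111483715), the catalytic subunit of Pol ζ, fell in OlaR SUM1315 cells as HLTF did. The OlaR libraries held 297, 316 and 342 adjusted reads against 590, 613 and 702 in olaparib-treated parental cells, with no overlap and a log2 fold change of -0.99 (95% CI -1.26 to -0.73, adjusted p = 1.64e-07). The call held under every alternative run, and against untreated cells, at 736, 748 and 721, the difference was -1.21 (adjusted p = 2.03e-09). High CDDP in the OlaR cells gave 504, 406 and 372 (0.41, adjusted p = 0.0258), a call that ended with limma voom on the recovered reads (0.0839) and when OlaR replicate 1 (0.105), OlaR replicate 2 (0.0674) or the first high CDDP replicate of OlaR cells (0.192) was left out.

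In MDA-MB-468 the REV3L level was 504, 486 and 407 in untreated cells and 388, 372 and 338 under olaparib (log2 fold change -0.34, adjusted p = 0.00479, and 0.051 without untreated replicate 1). Adding high CDDP to olaparib brought it to 514, 531 and 492, above olaparib alone (0.49, 95% CI 0.30 to 0.67, adjusted p = 5.33e-05). This was above high CDDP alone too (0.29, adjusted p = 0.0291), a call that was lost without high CDDP replicate 2 (0.176) or 3 (0.056), without replicate 1 (0.0641) or 2 (0.116) of olaparib with high CDDP, and with no filter on low values (0.0616). In OlaR cells REV3L was at 448, 486 and 407, above olaparib-treated parental cells (0.29, adjusted p = 0.00803), which was lost without OlaR replicate 2 (0.0686) or olaparib replicate 3 (0.056) and had the opposite sign against untreated cells (-0.06, adjusted p = 0.637). High CDDP in OlaR cells gave 408, 456 and 484, a change of 0.01. The change with high CDDP was therefore smaller in OlaR than in olaparib-treated parental MDA-MB-468 cells, by 0.48 on the log2 scale (difference -0.48, 95% CI -0.74 to -0.22, adjusted p = 0.00797), and this held under every alternative run. The same difference for POLK was -0.565 (adjusted p = 0.0338). It was lost with each library centred on its median (0.0721), with limma voom (0.0537), and without OlaR replicate 1 or 3, high CDDP replicate 2 or 3 of OlaR cells, olaparib replicate 2 or 3, or replicate 1 or 2 of olaparib with high CDDP, with adjusted p-values between 0.0534 and 0.102. With high CDDP alone, the REV3L mean in parental MDA-MB-468 cells went from 465.5 in untreated cells to 419.3. The POLK mean went from 162.4 to 126.3 there, and from 163.1 to 127.8 in OlaR cells. A difference with parental cells without olaparib as the reference was not tested. Between the lines the OlaR difference of REV3L was -1.28 (95% CI -1.61 to -0.94, adjusted p = 2.03e-08).

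POLQ (chr3:121431431-121545988), Pol θ, had the largest log2 fold changes of the 10 genes under CDDP alone in parental SUM1315 cells. It went from 49.9, 51.9 and 90.7 adjusted reads in untreated cells to 169, 180 and 175 under low CDDP and 122, 185 and 126 under high CDDP. All 6 CDDP libraries were above the untreated ones, with log2 fold changes of 1.49 (95% CI 1.02 to 1.95, adjusted p = 4.66e-06) and 1.19 (0.72 to 1.65, adjusted p = 7.36e-05) that were called under every alternative run. Olaparib alone gave 63.4, 71.7 and 72.0 (0.16, not called), and high CDDP added to it gave 123, 153 and 171 (1.09, adjusted p = 0.00194). In OlaR SUM1315 cells its log2 fold changes with low and high CDDP were 0.34 and 0.48, neither of them called (adjusted p = 0.544 and 0.149). The comparison with olaparib alone does not use the untreated libraries that stood apart, and without them in the fit the call held.

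In MDA-MB-468 POLQ rose from 134, 126 and 145 adjusted reads in untreated cells to 228, 180 and 185 under high CDDP (log2 fold change 0.54, 95% CI 0.30 to 0.79, adjusted p = 0.000523). The libraries under olaparib alone (162.1 to 163.6) and low CDDP (151.7 to 186.8) also lay above the untreated ones, but neither change was called. High CDDP added to olaparib gave 213, 207 and 224 against 164, 162 and 163 (0.39, adjusted p = 0.0123, and 0.0558 without replicate 3 of olaparib with high CDDP). OlaR cells held 186, 222 and 245, above the olaparib-treated parental libraries (0.41, 95% CI 0.16 to 0.65, adjusted p = 0.00401). In SUM1315 OlaR cells POLQ was at 72.2, 105 and 87.9 (0.34, not called). With untreated cells as the reference, the OlaR difference was 0.68 in MDA-MB-468 (adjusted p = 4.02e-06) and 0.49 in SUM1315 (adjusted p = 0.0668). The high CDDP changes of the lines differed by 0.65 (95% CI 0.12 to 1.18, adjusted p = 0.0604), which did not pass the test.

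Over the 18 group means, with each line centred on its own mean, POLK and REV3L (Pearson r = 0.855), REV3L and HLTF (0.828), RAD18 and POLQ (0.781) and UBE2A and UBE2B (0.757) had the most similar profiles among the 10 genes, and POLH and HLTF (-0.734) the most opposed. Of all 11755 genes tested in both lines, MAGED2 (0.961), S100A7 (0.943) and FLVCR2 (0.943) were most like POLH. HELLS (0.919), RAD51AP1 (0.912) and MCM7 (0.911) were most like RAD18, and SKA3 (0.928), C4orf46 (0.910) and ORC6 (0.897) most like POLQ. The points share libraries and 9 groups a line, and these correlations are descriptions.

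Among the other genes of the pathway, 8 lists were counted, and each count is read against the share of all genes called. That share was 43.9% in SUM1315 and 25.1% in MDA-MB-468 for high CDDP against untreated cells, 8.44% and 23.1% for high CDDP added to olaparib, 47.2% and 51.5% for OlaR against olaparib-treated parental cells, and 16.7% and 18.7% for high CDDP in OlaR cells. In SUM1315 the first of these rests on the 3 untreated libraries that stood apart, and the second does not use them. The lists hold 5 to 9 genes, and a count near the share of all genes says nothing particular about a list.

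PCNA and 8 genes that place, extend or remove its ubiquitin were all tested. In OlaR against olaparib-treated parental cells 6 were higher and 1 lower in SUM1315 (47.2% of all genes called) and 5 were higher and 1 lower in MDA-MB-468 (51.5%), with medians of 0.33 and 0.21 on the log2 scale against -0.045 and -0.030 over all genes. USP7, a deubiquitinase that acts on this pathway, fell in OlaR SUM1315 cells from 1739 ± 173 to 945 ± 10.1 (SD, n = 3, adjusted p = 1.31e-09), and PCNA was higher in OlaR MDA-MB-468 cells (1.35-fold, adjusted p = 6.6e-08). High CDDP against untreated cells gave 3 higher and 2 lower in SUM1315 (43.9%) and 2 higher and 2 lower in MDA-MB-468 (25.1%), and high CDDP added to olaparib 3 higher and 1 lower (8.44%) and 3 higher and 3 lower (23.1%). PCNA itself rose against untreated cells in both lines, from 376 ± 65.8 to 1429 ± 44.1 in SUM1315 (3.83-fold, adjusted p = 6.46e-16) and from 1184 ± 51.6 to 1896 ± 125 in MDA-MB-468 (1.6-fold, adjusted p = 2.38e-12).

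Of the clamp loader genes RFC1 to RFC5, 4 rose in SUM1315 (43.9%) and 5 in MDA-MB-468 (25.1%) with high CDDP against untreated cells, with medians of 1.08 and 0.64, and 4 rose in each line with high CDDP added to olaparib (8.44% and 23.1%), with medians of 0.48 and 0.55. In OlaR cells 3 were higher and 1 lower in SUM1315 (47.2%) and 4 were higher in MDA-MB-468 (51.5%). RFC2 had the smallest adjusted p of them in OlaR cells, at 318 ± 36.1 against 81.3 ± 18.5 in SUM1315 (adjusted p = 1.51e-11) and 504 ± 35.3 against 160 ± 18.6 in MDA-MB-468 (adjusted p = 2.79e-18).

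Of the polymerase partners, 4 of 7 rose in SUM1315 (43.9%) and 4 of 6 in MDA-MB-468 (25.1%), where POLN was not tested, with high CDDP against untreated cells. High CDDP added to olaparib gave 2 higher in SUM1315 (8.44%) and 4 higher and 1 lower in MDA-MB-468 (23.1%). In OlaR cells 2 were higher and 0 lower in each line, which is below the share of all genes called (47.2% and 51.5%). POLD1, the catalytic subunit of Pol δ, was 2.01-fold higher in OlaR SUM1315 cells (adjusted p = 1.39e-06) and MAD2L2, the REV7 subunit that binds REV3L, 1.85-fold higher in OlaR MDA-MB-468 cells (adjusted p = 3.37e-10).

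Of 7 regulators of RAD18 and Pol η, 6 rose in SUM1315 (43.9%) and 5 in MDA-MB-468 (25.1%) with high CDDP against untreated cells, with medians of 0.79 and 0.37. With high CDDP added to olaparib, 1 was higher and 1 lower in SUM1315 (8.44%, median 0.08) and 1 higher and 2 lower in MDA-MB-468 (23.1%, median 0.01). In OlaR cells 1 was higher and 2 lower in SUM1315 (47.2%), and 0 higher and 4 lower in MDA-MB-468 (51.5%). SIVA1, an adaptor of RAD18, went in opposite directions in OlaR cells, from 1267 ± 162 to 1963 ± 80.7 in SUM1315 (adjusted p = 2.76e-06) and from 2903 ± 106 to 1960 ± 62.7 in MDA-MB-468 (adjusted p = 9.21e-11).

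Of 5 fork remodelling and protection genes, 3 rose and 1 fell in SUM1315 (43.9%) and 3 rose in MDA-MB-468 (25.1%) with high CDDP against untreated cells, and 2 rose in each line with high CDDP added to olaparib (8.44% and 23.1%). In OlaR cells 2 were higher and 1 lower in each line, near the share of all genes called (47.2% and 51.5%). BRCA2 was lower in OlaR SUM1315 cells (57.6 ± 11.8 against 146 ± 20.2, adjusted p = 2.1e-06) and higher in OlaR MDA-MB-468 cells (678 ± 56.8 against 511 ± 11.3, adjusted p = 2.3e-05).

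Of 5 partners in POLQ end joining, 3 rose in SUM1315 (43.9%, median 0.45) and 2 in MDA-MB-468 (25.1%, median 0.30) with high CDDP against untreated cells. With high CDDP added to olaparib limma called 0 of them in SUM1315 (8.44%, median 0.18) and 1 as higher in MDA-MB-468 (23.1%, median 0.14). Of the SUM1315 ones, 3 had an unadjusted p under 0.05, and limma voom called 1, edgeR 0 and DESeq2 1. In OlaR cells 3 were higher in SUM1315 (47.2%) and 2 lower in MDA-MB-468 (51.5%), with FEN1, a flap nuclease, at 1122 ± 111 against 627 ± 64.1 (adjusted p = 0.000231) and 1048 ± 54.4 against 1558 ± 98.4 (adjusted p = 1.85e-12).

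Of 5 genes known as p53 targets, as POLH is, 3 were lower in OlaR SUM1315 cells and 1 was higher and 2 lower in OlaR MDA-MB-468 cells, near the share of all genes called (47.2% and 51.5%). Both lines express mutant p53, and a part of p53 in these changes was not tested. MDM2 fell to 356 ± 23.8 from 705 ± 59.3 in the first (adjusted p = 4.47e-09), and GADD45A rose to 219 ± 26.8 from 114 ± 2.17 in the second (adjusted p = 3.7e-10). With high CDDP against untreated cells 1 of the 5 rose in SUM1315 (43.9%), CDKN1A (2.28-fold, adjusted p = 2.25e-13), and 3 rose in MDA-MB-468 (25.1%), among them DDB2 (2.24-fold, adjusted p = 7.8e-08). With high CDDP added to olaparib 2 rose in SUM1315 (8.44%) and 3 in MDA-MB-468 (23.1%).

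The 8 proliferation genes are given beside RAD18 and POLQ because replication and mitosis genes (MCM7, ORC6 and SKA3) were among those with the most similar profiles. With high CDDP against untreated cells 7 of them rose in SUM1315 (43.9%, median 0.89), and 4 rose and 3 fell in MDA-MB-468 (25.1%, median 0.23). With high CDDP added to olaparib 2 were higher and 1 lower in SUM1315 (8.44%, median 0.24), and 3 higher and 5 lower in MDA-MB-468 (23.1%, median -0.25). In OlaR against olaparib-treated parental cells 3 were higher and 2 lower in SUM1315 (47.2%) and 3 were higher and 3 lower in MDA-MB-468 (51.5%). CDK1 rose from 523 ± 93.4 to 1541 ± 45.4 against untreated cells in SUM1315 (adjusted p = 3.59e-14), and MCM2 from 1161 ± 104 to 1929 ± 11.3 in MDA-MB-468 (adjusted p = 4.1e-13). The part of these changes in the rise of RAD18 and POLQ was not tested.

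In OlaR cells given high CDDP, 16.7% of all genes were called in SUM1315 and 18.7% in MDA-MB-468 (2199 and 2427 genes). On the recovered reads limma voom called 1274 and 1407 genes, edgeR 1702 and 1878, and DESeq2 1899 and 1923. The list counts by the main fit were as follows. In SUM1315, 3 of the PCNA genes, 2 clamp loaders, 2 p53 targets and 1 POLQ partner were higher and 0 lower. There were 3 regulators of RAD18 and Pol η higher and 1 lower, 1 polymerase partner higher and 2 lower, 2 fork genes higher and 1 lower, and 1 proliferation gene higher and 1 lower. In MDA-MB-468, 2 of the PCNA genes, 2 clamp loaders, 2 p53 targets, 2 fork genes, 1 regulator and 1 polymerase partner were higher and 0 lower, 1 POLQ partner was higher and 1 lower, and 3 proliferation genes were higher and 2 lower. On the recovered reads limma voom, edgeR and DESeq2 each called 0 polymerase partners and 1 POLQ partner in MDA-MB-468. limma voom called 0 regulators there, and in SUM1315 1 polymerase partner, 2 regulators and 1 proliferation gene. edgeR called 3 regulators in SUM1315. The other list counts of this comparison did not change with these tools. USP1, the deubiquitinase of PCNA, rose in both lines (1.56-fold, adjusted p = 8.22e-05, and 1.28-fold, adjusted p = 1.32e-05), as did BRCA2 (2.11-fold, adjusted p = 0.00032, and 1.21-fold, adjusted p = 0.00868), FEN1 (1.62-fold, adjusted p = 0.00694, and 1.43-fold, adjusted p = 5.61e-10) and GADD45A (1.61-fold, adjusted p = 0.000168, and 2-fold, adjusted p = 7.78e-10). POLD4, a subunit of Pol δ, fell in SUM1315 (0.649-fold, adjusted p = 0.0126), and CCNB1, a mitotic cyclin, fell in both lines (0.66-fold, adjusted p = 7.4e-06, and 0.719-fold, adjusted p = 1.67e-07).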

How the data were processed

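RNA of 54 libraries was sequenced as 3′ mRNA tags (QuantSeq, 50-base reads), and the submitters' processing notes name CASAVA 1.8.2, FastQC, STAR, HTSeq, edgeR and hg38. The deposited signal values are reads per gene that the authors adjusted with edgeR to 1 common library size, within each group of replicates. The adjustment was inverted, and the recovered whole reads gave back 100% of 1483380 values within a relative difference of 1e-06. Because the deposited values are not counts, the main test was limma 3.58.1 (R 4.3.3; intensity trend) on log2(value + 1). A gene was tested where 3 or more libraries of the fit reached 10 adjusted reads (13133 in SUM1315, 13012 in MDA-MB-468, 14460 over both), with all 27 libraries of a line in 1 fit, or all 54 for differences between the lines. p-values were adjusted by Benjamini-Hochberg over all genes tested, and called at 0.05 or less. Intervals are at 95% and not adjusted. Groups were taken from the sample titles and labels. The deposited tables of the authors' own fold changes and p-values were not used. The lower and the higher CDDP dose of each line are called low and high. For the higher dose in MDA-MB-468 the sample labels give 2.5 µM.

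Alternatives were a pseudocount of 0.5 or 5, no filter, libraries centred on their median, only the compared groups, a replicate block, a fold limit of 2, untreated cells as the reference, each library left out, and limma voom, edgeR 4.0.16 (quasi-likelihood) and DESeq2 1.42.0 on the recovered reads. The main fit was also run on simulated reads, for OlaR against olaparib-treated parental cells only. Those reads were divided by library size, which differs from the adjustment of the deposited values, and no result above rests on that run. Replicate numbers did not pair libraries. The 10 genes and the gene lists were chosen with earlier results of these data known. All 10 genes were named in every comparison that called them. Of each list and line, the gene with the smallest adjusted p among those called was noted in 3 comparisons (OlaR against olaparib-treated parental cells, high CDDP against untreated cells, and high CDDP in OlaR cells), and a selection of these is named. For POLH, RAD18 and POLQ the 3 genes with the most similar profile were named. Gene positions are from GENCODE (GRCh38) and promoters from RefSeq (GRCh38), where 9 of the 10 genes matched.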

Additional observations from a re-analysis of the deposited data

Results flagged for a closer look

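Differences of a change between the lines, SUM1315 minus MDA-MB-468 on the log2 scale, passed the test for 11 values. For OlaR against olaparib-treated parental cells they were -1.666 for HLTF, 1.332 for POLH, -1.278 for REV3L, -0.855 for POLK, 0.640 for UBE2A and 0.571 for REV1. For olaparib against untreated cells they were 0.755 for UBE2A, 0.752 for UBE2B and 0.485 for HLTF, and for high CDDP against untreated cells 0.968 for UBE2A and 0.692 for HLTF. The doses differed between the lines, and the comparisons with untreated cells rest on the 3 SUM1315 libraries that stood apart.

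Within MDA-MB-468, the change with high CDDP was lower in OlaR than in olaparib-treated parental cells for POLK (-0.565) and REV3L (-0.478). With high CDDP alone, the POLK mean in parental cells went from 162.4 in untreated cells to 126.3. In OlaR cells it went from 163.1 to 127.8. The REV3L mean went from 465.5 to 419.3 in parental cells and from 447.1 to 449.3 in OlaR cells. A difference with parental cells without olaparib as the reference was not tested.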

How the results depend on the processing

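Of 606 values of single genes under other settings, 585 kept their direction and call, 20 lost the call and 1 reversed. Of 462 values with 1 library left out, 88 lost the call and 0 reversed. The reversed value was REV3L in OlaR MDA-MB-468 cells, at -0.056 with untreated cells as the reference. Of the counts of called genes, 38 of 272 moved under other settings, and 36 of 192 with 1 library left out. A count moved when it changed by over 1.5 times or between 0 and another count. The other settings include the fold limit of 2, which by its rule removes calls of smaller changes. The cause of the other moves was not tested.

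Without the filter, olaparib added to high CDDP went from 1 to 0 in SUM1315 and from 2 to 1 in MDA-MB-468, and high CDDP in OlaR MDA-MB-468 cells from 1 to 0. Median centring called HLTF for high against low CDDP in MDA-MB-468 (0 to 1). With only the compared groups, low CDDP added to olaparib and the difference of the high CDDP change in SUM1315 went from 0 to 1, low CDDP in MDA-MB-468 from 3 to 5, and high CDDP in OlaR MDA-MB-468 cells from 1 to 0. Both of these SUM1315 counts also went from 0 to 1, through UBE2B, without the 3 untreated libraries, an alternative chosen after seeing the data.

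The replicate numbers do not pair the libraries: libraries with the same number deviated together with correlations of -0.098 to 0.163 in SUM1315 and -0.047 to 0.043 in MDA-MB-468. With a replicate block, olaparib added to high CDDP in SUM1315 and high CDDP in OlaR MDA-MB-468 cells went from 1 to 0.

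A fold change of at least 2 left 0 genes for olaparib, 1 for low CDDP, 2 for high CDDP, 1 for high CDDP added to olaparib, 0 for olaparib added to high CDDP, 1 for OlaR cells and 0 for high CDDP in OlaR cells in SUM1315. In MDA-MB-468 it left 1 for high CDDP and 0 for the other comparisons, and between the lines 3 for OlaR cells and 0 for the others.

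With limma voom on the recovered reads, high CDDP in OlaR cells went from 2 to 1 in SUM1315 and from 1 to 0 in MDA-MB-468. In MDA-MB-468, low CDDP went from 3 to 5, high CDDP added to olaparib from 2 to 5 and the difference of the high CDDP change from 2 to 1. The difference between the lines for high CDDP went from 2 to 4. edgeR gave 0 for high CDDP in OlaR MDA-MB-468 cells, and DESeq2 gave 1, RAD18, for low CDDP added to olaparib in SUM1315.

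With 1 library left out, the counts in SUM1315 ran from 0 to 2 for high CDDP in OlaR cells, 0 to 1 for high against low CDDP and for low CDDP added to olaparib, 1 to 2 for high CDDP added to olaparib, were 0 throughout for olaparib added to high CDDP, and ran from 4 to 7 for OlaR cells. In MDA-MB-468 they ran from 0 to 1 for high CDDP in OlaR cells, 1 to 2 for the difference of the high CDDP change and for olaparib added to high CDDP, 1 to 3 for low CDDP, 4 to 6 for high CDDP, 2 to 5 for olaparib and 5 to 7 for OlaR cells. Depth limits POLI most, with 8 to 81 reads a library.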
